A study of Mus musculus with 15 samples.

Results

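Fragments of the spliceosomal small nuclear RNAs (snRNAs) were counted in small RNA libraries of a mouse mammary tumour model. A sequenced insert, the RNA piece between the adapters, was taken as an snRNA fragment when it matched a GENCODE M21 mouse transcript of the snRNA biotype over its full length and matched no miRNA hairpin, rRNA, mitochondrial transcript or snoRNA. Of 627951 distinct inserts in the 15 libraries, 1653 met this rule, and they held 43333 of 6892924 reads (0.629%). U1 had 533 inserts with 13977 reads, U2 had 499 with 27515 reads, U5 had 246 with 644 reads, and U11 had 114 with 478 reads. U6 had 91 inserts with 119 reads, U4 had 62 with 127 reads, and U12 had 61 with 211 reads. The remaining 47 inserts matched U7, which had 243 reads, or Gm22710 and Gm25541, transcripts without a class name in the annotation, which had 11 and 8 reads.

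The 5 groups had 3 libraries each. Exosomes, small vesicles released by cells, had been prepared from the culture supernatant of TUBO cells. A second set of libraries came from the supernatant that was left when the exosomes had been isolated. TUBO is a tumour line established from primary breast tumours of Balb-NeuT mice. MM3MG-Her2 is MM3MG that had been transduced with retroviral particles carrying pLSXN-Neu, and MM3MG is the parental line, labelled as normal mammary epithelium of the BALB/c strain. Every group was grown in DMEM with 10% FCS, no treatment was given, and total RNA was isolated with TRIzol. The labels give no passage, clone or culture for any library, so p-values measure the spread between these libraries, which may be technical.

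The snRNAs are the RNA parts of the particles that splice pre-mRNA. U1 pairs with the 5′ splice site, U2 pairs with the branch point, U5 holds the exon ends, and U4 and U6 enter as a base-paired duplex before U6 joins the catalytic centre with U2. U11 and U12 do in the minor spliceosome what U1 and U2 do in the major one. U1, U2, U4, U5, U11 and U12 each carry a ring of Sm proteins on a short single-stranded uridine-rich stretch, the Sm site, whereas U6 has no Sm site and binds LSm proteins at its uridine tail. U7 acts in the cutting of histone pre-mRNA 3′ ends and is not a spliceosomal RNA.

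The libraries were cut from a gel at the size of miRNA inserts, so pieces and not intact snRNAs were measured. The insert sequences are written 5′ to 3′ as DNA letters from the deposited inserts and are placed on GENCODE M21 transcripts of GRCm38, from which the letters of whole genes are taken, with bases counted from 1 at the 5′ end of the transcript. Capitals mark the Sm-site motif, searched on the sense strand as ATTTNTG or, in U5 and U11, ATTTTTTG. These letters were picked with the inserts already in view. The motif stood whole in 31.6% of the 1653 snRNA inserts and in 0.682% of all other inserts. The whole U2 gene Rnu2-10 at chr11:101658238-101658428, plus strand, is shown because most U2 reads came from the stretch around its capitals.
Rnu2-10: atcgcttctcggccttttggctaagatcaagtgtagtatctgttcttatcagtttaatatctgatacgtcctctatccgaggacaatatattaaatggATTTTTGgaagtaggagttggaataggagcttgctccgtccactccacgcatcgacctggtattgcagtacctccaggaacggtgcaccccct

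The U2 inserts that carried most U2 reads lay over that motif, and those ending at base 121 were a larger part of U2 reads in MM3MG-Her2 than in the other groups. The insert of bases 93 to 116 is shown with the letters of Rnu2-10 (chr11:101658330-101658353, plus strand) and with those of Gm23472 (chr1:72237038-72237061, plus strand), which differ at 1 base. The inserts of bases 95 to 116 (chr11:101658332-101658353) and 94 to 121 (chr11:101658331-101658358) lie on the same strand of Rnu2-10.
U2 bases 93 to 116, Rnu2-10: aaatggATTTTTGgaagtaggagt
U2 bases 93 to 116, Gm23472: aaatggATTTTTGgaactaggagt
U2 bases 95 to 116, Rnu2-10: atggATTTTTGgaagtaggagt
U2 bases 94 to 121, Rnu2-10: aatggATTTTTGgaagtaggagttggaa
The U1 inserts are shown because libraries differed in which part of U1 they held: the last 21 bases (Rnu1b1, chr3:96359953-96359973, minus strand), the stretch of bases 47 to 65 (chr3:96360053-96360071, minus strand), and a 19-base piece with the letters of Gm24830 (chr3:96328552-96328570, plus strand) that aligns to bases 128 to 145. The U1 inserts that end at base 145 and cover the motif at bases 127 to 133 are given by position.
U1 bases 145 to 165, Rnu1b1: ctgcgttcgcgctctcccctg
U1 bases 47 to 65, Rnu1b1: ccagggcgaggctcaccca
U1 bases 128 to 145, Gm24830: tttgtggtagtgggggagc
The leading U12, U11 and U5 inserts come from Rnu12 (chr15:83149712-83149731, plus strand), Rnu11 (chr4:132270087-132270107, minus strand) and Gm25099 (chr4:117190031-117190057, plus strand). The U4 insert shown, from Gm24265 (chr5:115489574-115489591, plus strand), lies over the motif. It is not the leading U4 insert, as that of bases 1 to 18 had a higher mean RPM over all libraries.
U12 bases 69 to 88, Rnu12: agaagaATTTTTGagcgggt
U11 bases 107 to 127, Rnu11: gctggtgatcgttggtcccgg
U5 bases 90 to 116, Gm25099: tttttgaggtcctgctcgtgcagggct
U4 bases 116 to 133, Gm24265: gcaATTTTTGacagtctc

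Library depth ran between 196152 and 710902 reads, and the supernatant libraries were the shallowest, at 196152 to 273567 reads. miRNA hairpins took 57.3 to 60.6% of reads in exosomes, 28.1 to 33.2% in supernatant, 75.6 to 76.5% in TUBO cells, 49.8 to 54.6% in MM3MG-Her2 and 72.1 to 78.8% in MM3MG. Inserts of up to 20 bases made up 14.2 to 18.3% of reads in exosomes, 24.5 to 33.8% in supernatant and 9.82 to 10.4% in TUBO cells. The 7 epithelial miRNAs summed to 20411 RPM (reads scaled to a library of 1000000 reads) in TUBO cells, but to 12.5 in MM3MG-Her2 and 28.1 in MM3MG. The defining epithelial markers were thus near 0 in both lines labelled as mammary epithelium. The 6 stromal miRNAs summed to 35943 RPM in TUBO cells, 54862 in MM3MG-Her2 and 141345 in MM3MG. Of these, Mir143 was high in all 3 lines, while Mir199a-2 had 22, 100 and 35 reads in TUBO cells, against 16720, 47182 and 29840 in MM3MG. The 7 blood and serum miRNAs summed to 6531 to 14896 RPM in exosomes, 918 to 1992 in supernatant and 93.3 to 121 in TUBO cells. They summed to 337 to 422 RPM in MM3MG-Her2 and 771 to 895 in MM3MG, so this sum was not particular to the extracellular groups. All 7 were detected in exosomes, and 3 of 7 were at 0 in each of the other TUBO groups. Mir3107 had most reads of this list. It had 3182, 2415 and 6851 reads in exosomes, 237, 170 and 542 in supernatant and 343, 486 and 400 in MM3MG. Mir451a, a red blood cell miRNA, had 338, 284 and 259 reads in exosomes, 2, 0 and 0 reads in supernatant and none in TUBO cells. The part of serum RNA from the medium in the snRNA results was not tested.

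The share of reads from snRNAs was higher outside TUBO cells than in them. It was 1.51, 1.77 and 1.09% in exosomes and 2.16, 2.45 and 1.85% in supernatant, against 0.135, 0.126 and 0.130% in TUBO cells. Neither extracellular group overlapped the cells, with folds of means of 11.2 for exosomes and 16.5 for supernatant. The 95% Wilson intervals of the shares were at most 0.137 percentage points wide outside cells and 0.0312 points in cells, and they cover counting error only, because amplified copies of 1 molecule cannot be told from separate molecules here. The log2 change of the total was 3.48 ± 0.25 (SE) in exosomes against TUBO cells, with an adjusted p of 1.22e-09 (edgeR quasi-likelihood test, Benjamini-Hochberg over all annotated features). It was 4.05 ± 0.25 in supernatant against the same TUBO cells, with an edgeR adjusted p of 2.42e-10. Both comparisons use the same TUBO cell libraries. Exosomes had a lower share than supernatant, with a log2 change of -0.56 ± 0.22 and an edgeR adjusted p of 0.0330. That call was lost without exosome replicate 1 or 3 or without supernatant replicate 1 or 2 (edgeR adjusted p between 0.0568 and 0.124). Of the annotated features tested, 66.7% passed the threshold of 0.05 in exosomes against TUBO cells, with 32.6% higher and 34.1% lower. In supernatant against TUBO cells 77.3% passed, with 29.9% higher and 47.4% lower. In exosomes against supernatant 68.4% passed, with 52.4% higher and 16% lower. In these libraries fewer cells or vesicles and less RNA in each cannot be told apart.

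U2 and U1 made up most of the difference between the extracellular groups and TUBO cells. U2 had 11711, 14314 and 8433 RPM in exosomes and 9367, 12766 and 7709 in supernatant, against 659, 546 and 605 in TUBO cells. The exosome and supernatant values of U2 overlapped, and both groups lay above every TUBO cell library. U2 rose by 4.25 ± 0.28 log2 in exosomes against TUBO cells (edgeR adjusted p = 5.14e-10) and by 4.04 ± 0.28 in supernatant against TUBO cells (edgeR adjusted p = 5.74e-10). Between exosomes and supernatant its log2 change was 0.21 ± 0.25 (edgeR adjusted p = 0.455), but the call depended on the scaling. With other scalings U2 was lower in exosomes than in supernatant and passed, at -0.66 with TMM, -0.51 with RLE, -0.75 with miRNA reads as library size and -0.51 in DESeq2 (adjusted p = 0.0157, 0.0438, 0.00664 and 0.0386).

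U1, the snRNA of 5′ splice site recognition, was highest in supernatant. It had 3195, 3089 and 2321 RPM in exosomes and 11713, 11231 and 10188 in supernatant, against 457, 470.1 and 466 in TUBO cells. The 3 groups did not overlap. U1 rose by 2.63 ± 0.24 log2 in exosomes against TUBO cells (edgeR adjusted p = 1.89e-08) and by 4.57 ± 0.26 in supernatant against TUBO cells (edgeR adjusted p = 6.31e-11). Relative to supernatant, U1 in exosomes fell by 1.94 ± 0.23 log2 (edgeR adjusted p = 5.23e-07), a comparison in which the median log2 change of all tested features was 1.43. U2 thus made 78.7 ± 2.08% of snRNA reads in exosomes, 45.7 ± 5.59% in supernatant and 46.3 ± 2.67% in TUBO cells (SD, n = 3 each), and U1 made 19.98 ± 2.16%, 51.7 ± 5.11% and 35.7 ± 1.78% of them in the same 3 groups. Per 100 bases of transcript, U2 had 6013 and U1 had 1738 RPM in exosomes, U2 5208 and U1 6693 in supernatant, and U2 316 and U1 281 in TUBO cells.

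U11 and U12, the minor spliceosome pair, moved in opposite directions in exosomes against TUBO cells, but in the same direction in the other 2 TUBO comparisons. U12 had 37.7, 67.7 and 42.1 RPM in exosomes and 158, 158 and 84.1 in supernatant, against 7.65, 3.81 and 9.85 in TUBO cells. U12 rose by 2.68 ± 0.48 log2 in exosomes and by 4.12 ± 0.47 in supernatant, each against TUBO cells (edgeR adjusted p = 6.86e-05 and 2.60e-07). U11 had 27.4, 25.7 and 16.1 RPM in exosomes and 184, 168 and 143 in supernatant, against 45.9, 79.9 and 66.1 in TUBO cells. Every exosome library was thus below, and every supernatant library above, every TUBO cell library. U11 fell by 1.45 ± 0.39 log2 in exosomes against TUBO cells (edgeR adjusted p = 0.00275) and rose by 1.37 ± 0.35 in supernatant against TUBO cells (edgeR adjusted p = 0.00149). In exosomes against supernatant, U11 fell by 2.82 ± 0.39 log2 and U12 fell by 1.44 ± 0.39 (edgeR adjusted p = 4.26e-06 and 0.00299).

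U5, which holds the exons to be joined, was lower outside cells. It had 42.8, 44.4 and 30.1 RPM in exosomes and 26.3, 40.8 and 14.6 in supernatant, against 116, 114 and 111 in TUBO cells. In reads, U5 had 25, 19 and 15 in exosomes and only 6, 8 and 4 in supernatant, against 76, 60 and 79 in TUBO cells. U5 fell by 1.54 ± 0.35 log2 in exosomes and by 2.11 ± 0.42 in supernatant, each against TUBO cells (edgeR adjusted p = 0.000773 and 0.000152). With miRNA reads as library size the fall in supernatant was 0.79 log2 and did not pass (edgeR adjusted p = 0.103). These 2 groups overlapped each other, and their difference of 0.57 ± 0.46 log2, exosomes over supernatant (edgeR adjusted p = 0.269), turned negative with TMM, RLE and miRNA-based scaling, at -0.30, -0.14 and -0.38.

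U4 and U6, the pair that enters the spliceosome as a duplex, were rare. U4 had 30.8, 35.0 and 12.04 RPM in exosomes and 13.2, 45.9 and 40.2 in supernatant, against 19.9, 13.3 and 11.3 in TUBO cells. All 3 groups overlapped, and no U4 difference passed the threshold with all reads as library size (edgeR adjusted p = 0.168 for exosomes and 0.0665 for supernatant against TUBO cells). In supernatant against TUBO cells the U4 log2 change of 1.14 became 2.19 with TMM, 2.00 with RLE and 2.47 with miRNA-based scaling, and 1.51 without supernatant replicate 1, and it passed in each (edgeR adjusted p = 0.000934, 0.00332, 0.000279 and 0.0198). In exosomes against TUBO cells U4 passed without exosome replicate 3, at 1.13, and with miRNA-based scaling, at 1.15 (edgeR adjusted p = 0.0311 and 0.0489). In exosomes against supernatant the U4 log2 change of -0.35 became -1.25 with TMM and -1.32 with miRNA-based scaling, and passed in both (edgeR adjusted p = 0.0453 and 0.0377). U6 had 14, 14 and 7 reads in exosomes and no read in any supernatant library, against 10, 8 and 8 reads in TUBO cells. Over the supernatant group, 3 reads would be 4.30 RPM. That level is 3.24-fold below the U6 mean of TUBO cells and 5.48-fold below that of exosomes. These folds allow for counting error in supernatant only, not for error in the other means or for spread between libraries. U6 was too rare for the low-count filter; without that filter the edgeR adjusted p was 0.0241 for supernatant against TUBO cells, 0.00199 for exosomes against supernatant and 0.579 for exosomes against TUBO cells. U7 had 37.7, 49.0 and 18.1 RPM in exosomes and 145, 81.6 and 296 in supernatant, against 25.999, 9.52 and 18.3 in TUBO cells. U7 rose by 3.26 ± 0.50 log2 in supernatant against TUBO cells and fell by 2.34 ± 0.48 in exosomes against supernatant (edgeR adjusted p = 9.52e-06 and 0.000304).

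Of the 7 spliceosomal classes, 6 were frequent enough to be tested, all but U6, and of these 3 were higher and 2 lower in exosomes against TUBO cells, where 66.7% of all features tested beside the classes passed, 32.6% higher and 34.1% lower. In supernatant against TUBO cells 4 were higher and 1 lower, where 77.3% of all features passed, 30.4% higher and 47% lower. In exosomes against supernatant 3 were lower, where 68.2% of all features passed, 51.8% higher and 16.4% lower. With so few classes these counts are descriptions. U6 could be tested in supernatant against TUBO cells when any 1 of these 6 libraries was left out, and it then passed each time, with log2 changes of -5.78 to -5.52 that depend on how reads of 0 are treated (edgeR adjusted p between 0.00287 and 0.0108). The median log2 change of all tested features was -0.11 in exosomes and -0.75 in supernatant against TUBO cells.

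**Figure D1:**
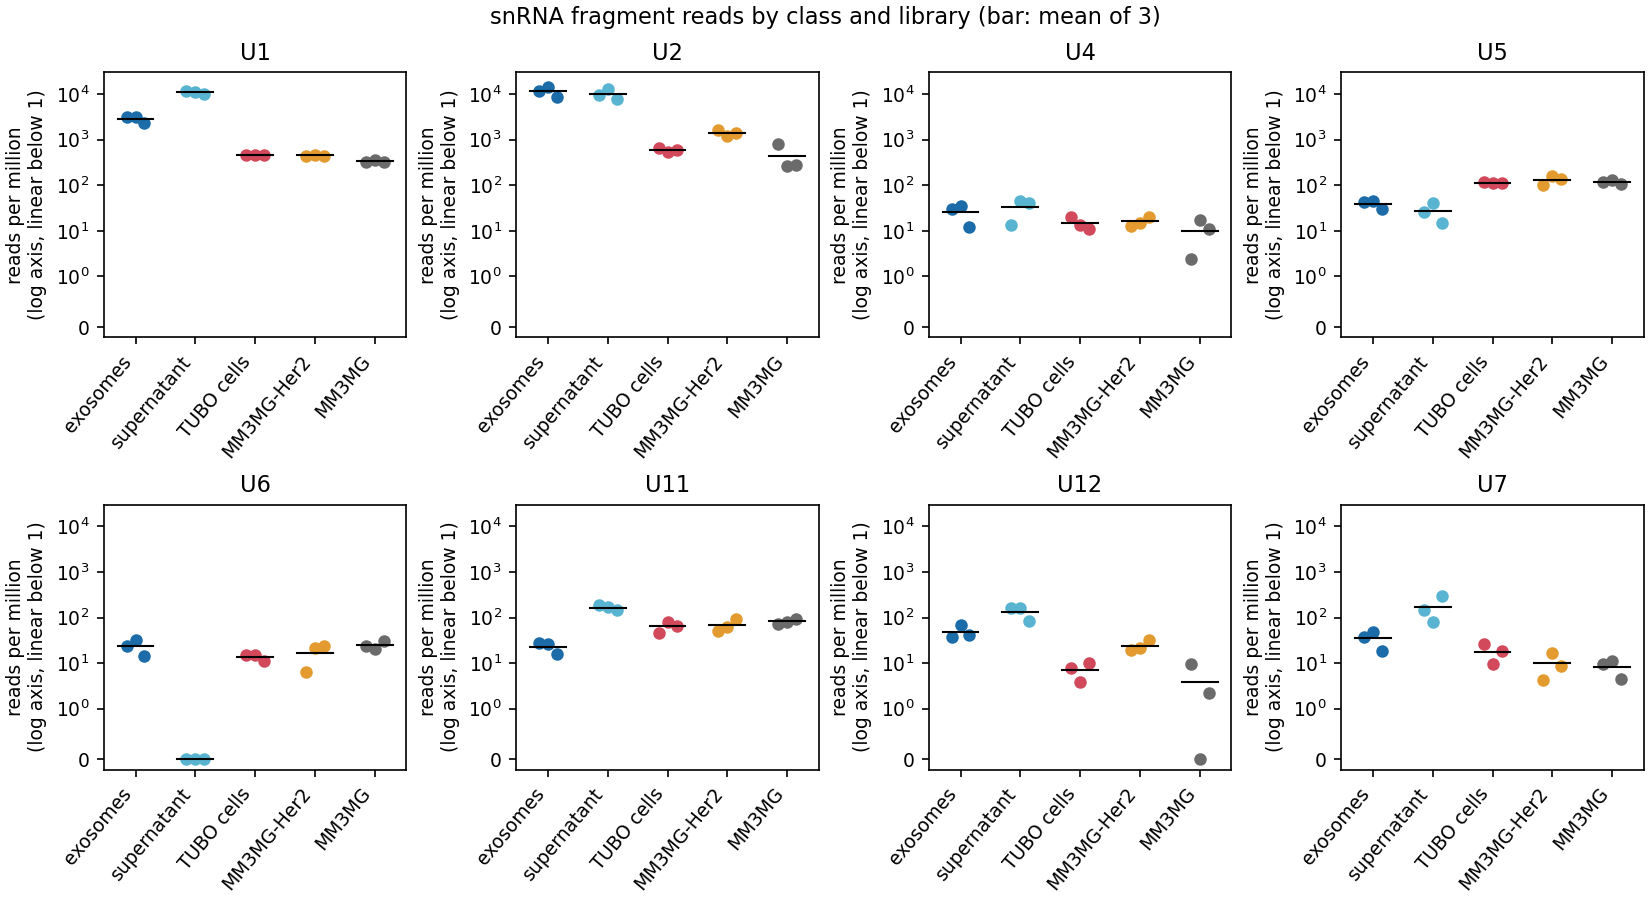
RPM of each snRNA class in every library (points) with the mean of 3 libraries (bar), on a vertical axis that is logarithmic above 1 and linear below. U1 and U2 lie highest in exosomes and supernatant, U5 is lower there than in TUBO cells, and U6 is at 0 in the 3 supernatant libraries.

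The single inserts showed the same split between U1 and U2. Only 92 of the 1653 inserts were frequent enough to be tested in the TUBO libraries. Inserts that pass mainly through the group in which they are high had to differ. The counts here, and the p-values of single inserts below, are therefore descriptions. In exosomes against TUBO cells 75 of the 92 were higher, where 25% of all inserts tested were higher and 49% passed, and 4 were lower, where 23.9% were. Those 4 became 2, 1 and 2 without exosome replicate 2, exosome replicate 3 or TUBO cell replicate 2. In supernatant against TUBO cells 87 of 92 were higher, where 41.9% of all were, and 0 were lower in edgeR (0 also at an unadjusted p under 0.05, and 0 in DESeq2), where 39.8% of all were and 81.7% passed. Exosomes against supernatant gave 6 higher inserts, where 38.6% of all were, and 42 were lower, where 34.7% of all were and 73.3% passed. The 6 became 3 and 1 without exosome replicate 1 or 2. U1 held 39 of these 42 lower inserts and none of the 6 higher ones, all of which were U2.

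The most frequent U1 insert, bases 127 to 145, had 1119, 967 and 644 RPM in exosomes and 2864, 2488 and 2917 in supernatant, against 3.06, 1.90 and 2.81 in TUBO cells. Its log2 change against TUBO cells was 8.29 ± 0.47 in exosomes and 9.89 ± 0.49 in supernatant. The U1 insert of bases 145 to 165, the last 21 bases of the RNA, ran the other way. It had 6.85, 16.3 and 8.03 RPM in exosomes and 65.8, 91.8 and 289 in supernatant, against 94.8, 116 and 125 in TUBO cells. This insert fell by 3.43 ± 0.61 log2 in exosomes against TUBO cells (edgeR adjusted p = 0.000109), while supernatant against TUBO cells gave 0.43 ± 0.51 (edgeR adjusted p = 0.448). Inserts of bases 144 to 165 and 147 to 165 also fell in exosomes against TUBO cells, by 2.03 ± 0.62 and 3.13 ± 0.99 log2 (edgeR adjusted p = 0.0110 and 0.0145).

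The log2 changes of single U1 inserts in exosomes against supernatant reached -7.80. Among inserts with at least 50 reads and no overlap between the groups, the 3 largest falls included the insert of bases 147 to 165, at -5.29 ± 0.98 (edgeR adjusted p = 0.000152), and 2 inserts that had 0 reads in the 3 TUBO cell libraries. The insert of bases 147 to 165 had 8.57, 4.67 and 0 RPM in exosomes, against 30.7, 66.3 and 461 in supernatant. Supernatant replicate 3 thus stood apart for this insert. The insert with the letters of Gm24830 had 1.71, 0 and 2.01 RPM in exosomes, against 193, 168 and 154 in supernatant. The U1 insert of bases 127 to 151 had 3.43, 2.33 and 0 RPM in exosomes, against 92.1, 66.3 and 58.5 in supernatant. The log2 changes of these last 2 inserts in exosomes against supernatant were -6.75 ± 0.67 and -5.01 ± 0.67.

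Among U2 inserts, the piece of bases 95 to 116 had 779.6, 995 and 686 RPM in exosomes and 452, 678 and 307 in supernatant, against 4.59, 0 and 1.41 in TUBO cells. Its log2 change against TUBO cells was 8.43 ± 0.63 in exosomes and 7.65 ± 0.62 in supernatant. The U2 insert of bases 93 to 116 with Rnu2-10 letters had 699, 936 and 594 RPM in exosomes and 640.3, 933 and 461 in supernatant, against 39.8, 47.6 and 39.4 in TUBO cells. Its log2 changes against TUBO cells were 4.13 ± 0.41 and 3.997 ± 0.41 (edgeR adjusted p = 3.98e-07 and 1.98e-07). The insert with the same ends and the letters of Gm23472 had smaller values of this change. It had 433, 749 and 395 RPM in exosomes and 443, 591 and 449.6 in supernatant, against 159, 112 and 107 in TUBO cells, with log2 changes against TUBO cells of 2.06 ± 0.38 and 1.97 ± 0.38 (edgeR adjusted p = 0.000154 and 0.000123). The largest rise of a U2 insert in exosomes against supernatant was that of bases 95 to 117. It had 32.6, 37.4 and 28.1 RPM in exosomes, against 4.39, 10.2 and 3.66 in supernatant, a log2 change of 2.44 ± 0.63, and 0 reads in TUBO cells.

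U1 reads were thus made up of different pieces inside and outside cells. The pieces were placed on Rnu1b1 as the reference, and their source gene cannot be named. The insert of bases 127 to 145 matched 26 annotated loci and that of bases 145 to 165 matched 15. Pieces ending at base 145, just downstream of the Sm site, made 76.1, 78.4 and 73.9% of U1 reads in exosomes and 55.9, 52.8 and 53.5% in supernatant, against 7.69, 13.0 and 8.76% in TUBO cells. Pieces running from base 144 to 148 up to the last base, 165, made 3.32, 3.10 and 1.64% of U1 reads in exosomes and 4.04, 6.31 and 9.51% in supernatant, against 64.9, 57.5 and 60.7% in TUBO cells. Neither measure overlapped between the cells and the extracellular groups. The pieces ending at base 145 averaged 2189 ± 410.3 RPM in exosomes and 5977 ± 548 in supernatant, against 45.6 ± 13.5 in TUBO cells, while the terminal pieces averaged 80.0 ± 36.7 and 717 ± 248, against 283 ± 13.2 (SD, n = 3 each). Reads covering the whole Sm motif were 81.5 ± 2.64% of U1 reads in exosomes and 59.9 ± 3.99% in supernatant, against 11.2 ± 1.90% in TUBO cells (SD, n = 3 each). For motif coverage the exact 2-sided permutation test gave p = 0.1 against TUBO cells for each, the smallest p that 3 against 3 libraries allow, so it cannot pass 0.05; the 2 kinds of piece were picked from the coverage and were not tested. Over the 120 comparisons of position and length the smallest Benjamini-Hochberg value was 0.222.

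**Figure D2:**
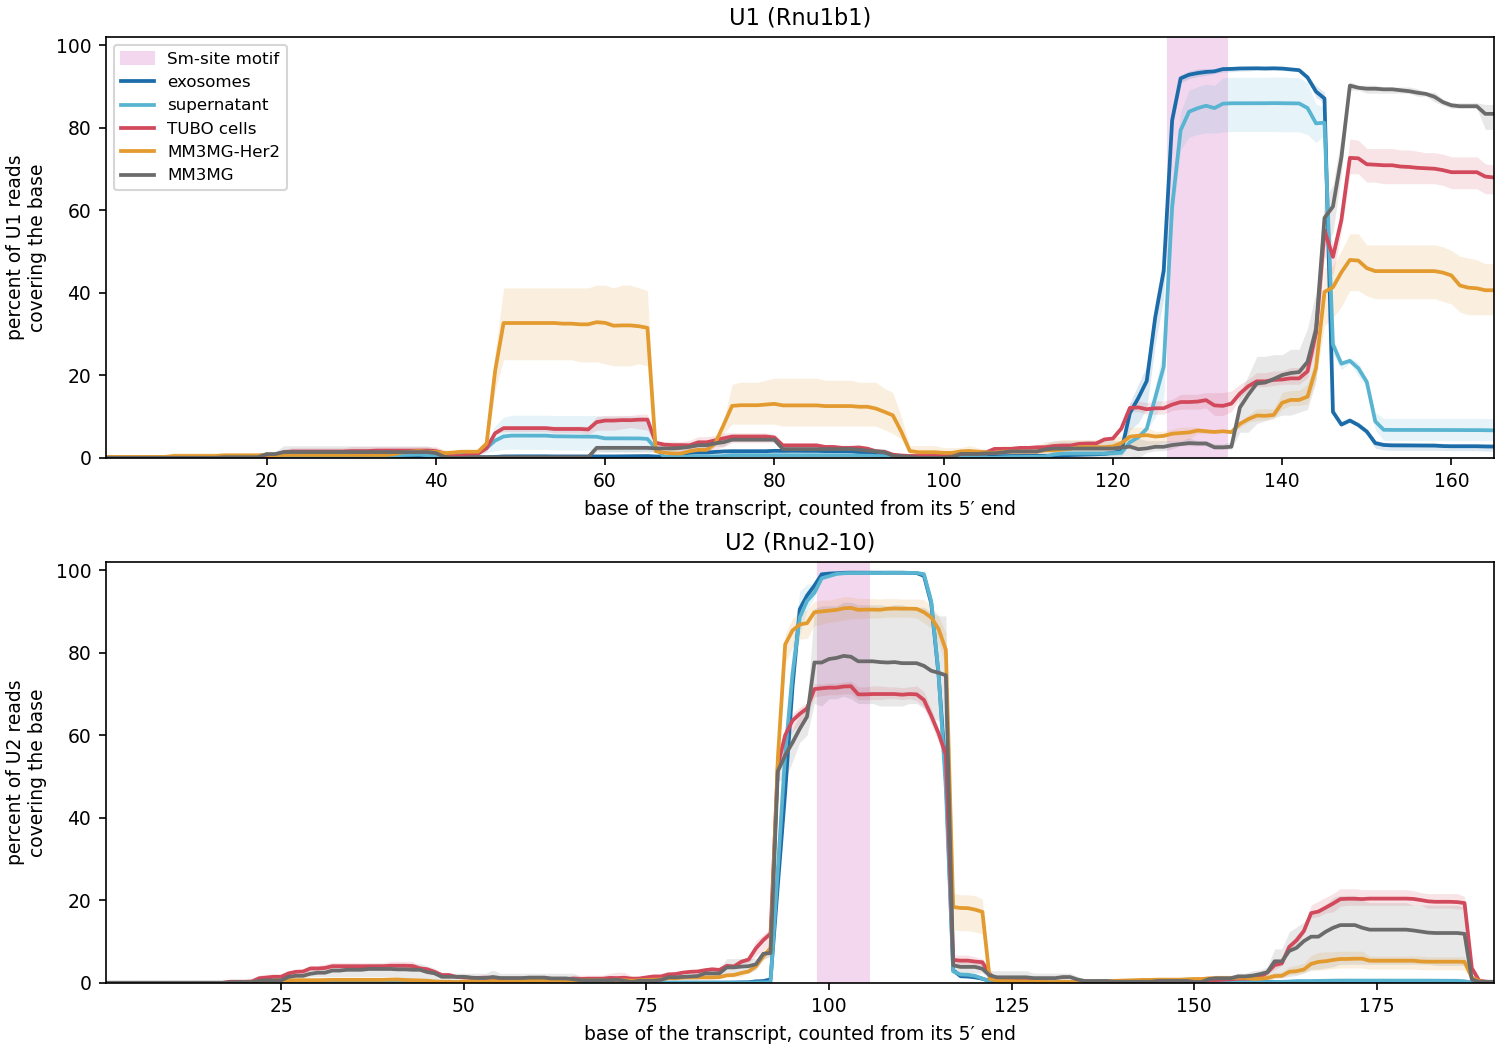
Percent of U1 reads (top) and of U2 reads (bottom) covering each base, counted from the 5′ end of Rnu1b1 and Rnu2-10; lines are means of 3 libraries, bands run from the lowest to the highest library, and the shaded bar is the Sm-site motif. In U1 the exosome and supernatant lines peak at bases 127 to 145 and the TUBO cell and MM3MG lines at bases 145 to 165; in U2 every group peaks between bases 93 and 116.

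In U2 every group had its peak over the Sm site, and the groups differed in the share outside it. Reads covering the whole motif made 98.9 ± 0.24% of U2 reads in exosomes and 98.0 ± 0.29% in supernatant, against 69.2 ± 1.44% in TUBO cells (SD, n = 3 each). Pieces ending at base 187, near the 3′ end of U2, made 0.0732, 0.196 and 0.357% of U2 reads in exosomes and 0.140, 0.280 and 0.616% in supernatant, against 14.4, 15.7 and 17.2% in TUBO cells. In neither measure did TUBO cells overlap the extracellular groups (exact 2-sided permutation p = 0.1 for motif coverage against TUBO cells).

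The U2 pieces were also shorter outside cells. Their mean length was 21.5 ± 0.17 bases in exosomes and 21.6 ± 0.14 in supernatant, against 23.3 ± 0.12 in TUBO cells (SD, n = 3 each; exact 2-sided permutation p = 0.1 for each). Inserts of 24 bases made 11.8 ± 1.38% of U2 reads in exosomes and 12.4 ± 0.16% in supernatant, against 34.4 ± 5.51% in TUBO cells. U1 pieces averaged 20.3 ± 0.27 bases in exosomes and 20.003 ± 0.11 in supernatant, against 21.3 ± 0.25 in TUBO cells. U11 pieces were longer in supernatant, at 25.7 ± 0.57 bases, against 23.6 ± 0.49 in TUBO cells (exact 2-sided permutation p = 0.1). Inserts of up to 20 bases were also a larger part of all reads in the extracellular libraries than in TUBO cells, as given above. Their part in the length of snRNA pieces was not tested.

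**Figure D3:**
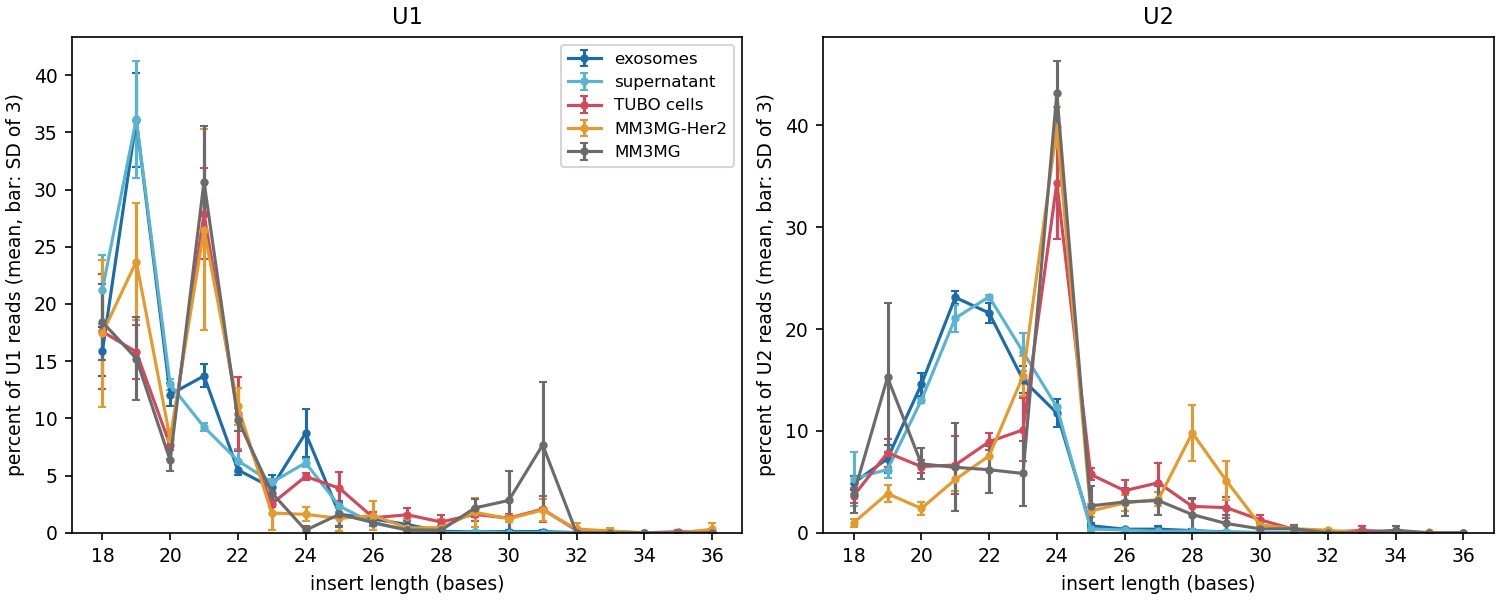
Percent of U1 reads (left) and of U2 reads (right) by insert length in bases; points are means and bars SDs of 3 libraries. U1 peaks at 19 bases in exosomes and supernatant and at 21 bases in the 3 cell groups; U2 peaks at 21 or 22 bases in exosomes and supernatant and at 24 bases in the cells.

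Over all snRNA reads, those holding the whole Sm motif made 93.7, 95.7 and 94.1% in exosomes and 77.8, 78.0 and 72.2% in supernatant, against 41.8, 38.9 and 39.6% in TUBO cells. The difference of means was 54.4 percentage points for exosomes and 35.9 points for supernatant, each against TUBO cells, and 18.5 points for exosomes against supernatant. No 2 of these 3 groups overlapped (exact 2-sided permutation p = 0.1 each, 0.12 after adjustment over 6 comparisons). Among reads that did not match snRNAs, the motif was held by 0.209 to 0.270% in exosomes, 0.216 to 0.227% in supernatant and 0.0602 to 0.0645% in TUBO cells.

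**Figure D4:**
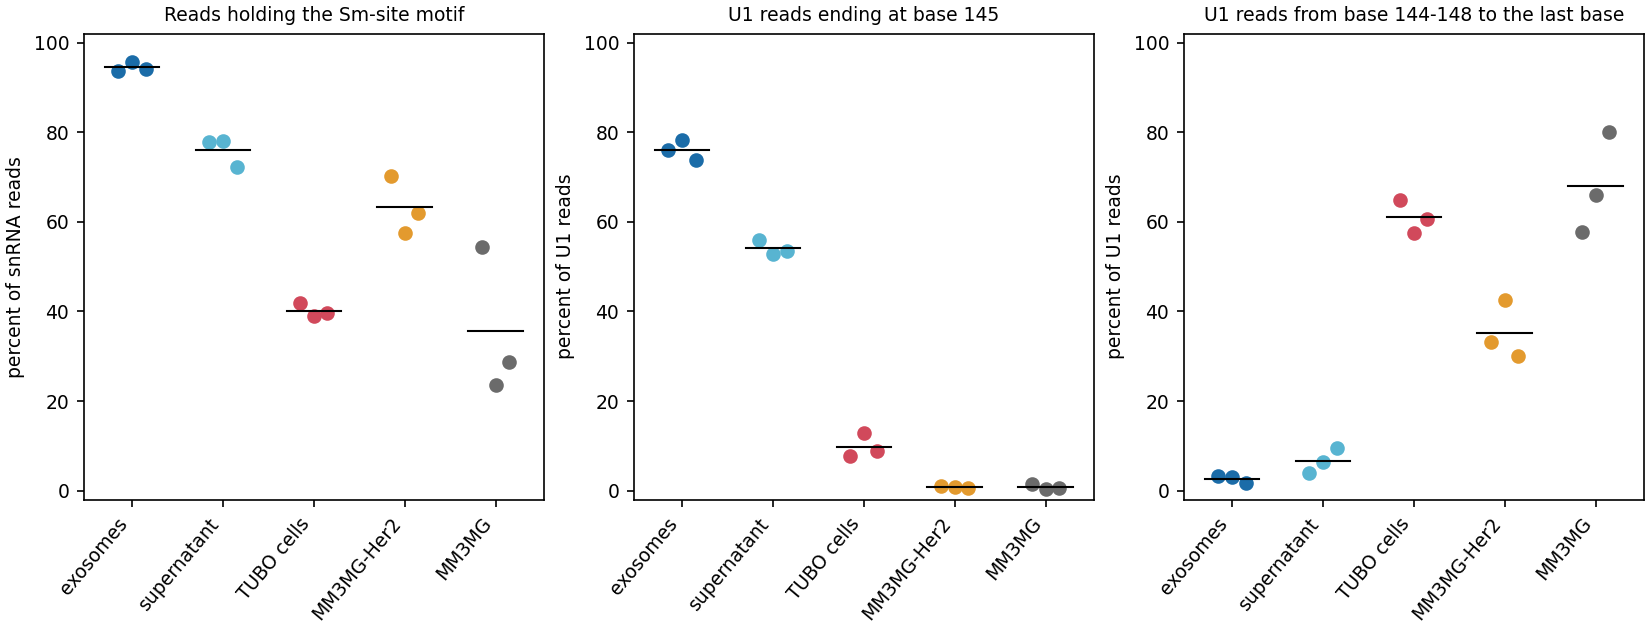
Percent of snRNA reads that hold the Sm-site motif (left), percent of U1 reads that end at base 145 (middle) and percent of U1 reads from base 144 to 148 up to the last base (right), per library (points) with the mean of 3 (bar). Exosomes are highest for the first 2 measures, at 94.5 and 76.1% on average, and lowest for the last, at 2.69%.

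The minor class pieces differed by position too. In the 3 cell groups the U11 peak lay at bases 107 to 127 in TUBO cells and at bases 106 to 127 in MM3MG-Her2 and MM3MG, downstream of the U11 motif at bases 88 to 95. In supernatant 26.9 ± 11.4% of U11 reads started at the first base, against none in TUBO cells (SD, n = 3 each), a difference that was not tested. The insert of bases 107 to 127 had no read in supernatant and 1.71, 0 and 0 RPM in exosomes, against 12.2, 17.1 and 11.3 in TUBO cells. U11 in exosomes, with 8 to 16 reads per library, was too rare to be compared by position.

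U12 pieces lay over the U12 motif at bases 75 to 81 in both extracellular groups, and 89.8 ± 7.78% of U12 reads covered it whole in exosomes, against 58.1 ± 10.2% in supernatant (SD, n = 3 each; exact 2-sided permutation p = 0.1). The U12 insert of bases 69 to 88 had 13.7, 18.7 and 8.03 RPM in exosomes and 26.3, 40.8 and 29.2 in supernatant, against 0 reads in TUBO cells. The insert of bases 77 to 98, which starts inside the motif, had 35.1, 20.4 and 3.66 RPM in supernatant and 0 reads in every other library. U12 was too rare in the cell groups to be compared by position, but its few reads there lay over the same stretch. The peak was at bases 69 to 90 in MM3MG-Her2 (30 reads) and 69 to 88 in MM3MG (5 reads). In TUBO cells (14 reads) the highest coverage was at base 77.

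U4 and U5 pieces were few. The U4 insert of bases 1 to 18, from the end that pairs with U6, had 1.71, 0 and 0 RPM in exosomes and 0, 30.6 and 32.9 in supernatant, against 0 reads in TUBO cells. The U4 insert of bases 116 to 133, over the motif, had 10.3, 9.34 and 6.02 RPM in exosomes and 4.39, 10.2 and 0 in supernatant, against 0 reads in TUBO cells. The U5 insert of bases 90 to 116, with the letters of Gm25099 and ending at the last base, had 1.71, 0 and 0 RPM in exosomes and 0 in supernatant, against 4.59, 7.61 and 8.44 in TUBO cells. These 3 inserts were chosen for their level over all libraries, and none was frequent enough to be tested.

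Between the cell lines, U2 had the largest log2 change among the classes that passed the threshold after the low-count filter, and it was highest in MM3MG-Her2. The snRNA share of all reads was 0.226, 0.200 and 0.217% in MM3MG-Her2, against 0.136, 0.0897 and 0.0853% in MM3MG, a log2 change of 1.05 ± 0.16 (edgeR adjusted p = 3.12e-05), in a comparison where 64.7% of all features passed, 14.8% higher and 49.9% lower. U2 had 1628, 1229.6 and 1401 RPM in MM3MG-Her2, against 797, 264 and 284 in MM3MG. MM3MG replicate 1 stood apart from the other 2 MM3MG libraries, and the groups did not overlap. U2 rose by 1.68 ± 0.39 log2 in MM3MG-Her2 against MM3MG (edgeR adjusted p = 0.00507), and by 2.37 without MM3MG replicate 1 (edgeR adjusted p = 5.13e-18). U1 had 436, 465 and 449 RPM in MM3MG-Her2, against 328, 367 and 319.6 in MM3MG, a log2 change of 0.41 ± 0.14 (edgeR adjusted p = 0.0209). That U1 call was lost without MM3MG-Her2 replicate 2, without MM3MG replicate 3 and without the low-count filter (edgeR adjusted p = 0.0561, 0.0569 and 0.660). U5, U6 and U11 gave log2 changes of 0.14, -0.57 and -0.29 that did not pass (edgeR adjusted p = 0.555, 0.257 and 0.369), and the sign of U11 turned with TMM and RLE scaling, at 0.031 and 0.27. U5 passed with TMM and RLE scaling, at 0.46 and 0.70 (edgeR adjusted p = 0.0442 and 0.00449). With all reads as library size 2 of the 5 classes tested were higher, where 64.3% of all features passed, 14.9% higher and 49.4% lower, and the median log2 change of all features was -0.63.

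U12 was too rare for the low-count filter in the cell lines. It had 9, 10 and 11 reads in MM3MG-Her2, against 4, 0 and 1 reads in MM3MG, and without the filter its log2 change was 2.74 ± 0.64 (edgeR adjusted p = 0.00105), larger than that of U2. In TUBO cells against MM3MG-Her2 the U12 log2 change without the filter was -1.65 ± 0.52 (edgeR adjusted p = 0.0582). U4 had 6, 7 and 7 reads in MM3MG-Her2, against 1, 11 and 5 reads in MM3MG, and did not pass (edgeR adjusted p = 0.786 without the filter).

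TUBO cells had 0.135, 0.126 and 0.130% of reads from snRNAs, against 0.136, 0.0897 and 0.0853% in MM3MG, and the log2 change of 0.33 ± 0.16 did not pass (edgeR adjusted p = 0.0712). Without MM3MG replicate 1 it was 0.57 (edgeR adjusted p = 1.60e-05), and U2, at 0.44 with all libraries (edgeR adjusted p = 0.328), was 1.14 (edgeR adjusted p = 5.09e-09). In DESeq2 U2 was 0.78 with all libraries and passed (adjusted p = 0.0493). Of all features tested beside the total, 73.8% passed, 27.2% higher and 46.7% lower. U1 rose by 0.45 ± 0.14 log2 in TUBO cells against MM3MG (edgeR adjusted p = 0.00900) and was the 1 class of 5 tested to pass, where 73.3% of all features did, 27.1% higher and 46.2% lower, with a median log2 change of -0.53. Without the low-count filter this U1 call was lost (edgeR adjusted p = 0.241). Against MM3MG-Her2, TUBO cells had less snRNA, with a log2 change of -0.72 ± 0.16 (edgeR adjusted p = 0.000958), where 56.8% of all features passed, 31.4% higher and 25.4% lower. U2 fell by 1.23 ± 0.38 log2 in TUBO cells against MM3MG-Her2 (edgeR adjusted p = 0.0219), the 1 class of 5 tested to pass, where 56.2% of all features did, 31.1% higher and 25.2% lower, with a median log2 change of 0.13. The U2 call was lost without any 1 of the 3 TUBO cell libraries or without MM3MG-Her2 replicate 1 (edgeR adjusted p between 0.0584 and 0.0672).

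Only 15 of the 1653 inserts could be tested among the cell lines. As in the TUBO libraries, inserts that pass mainly through the group in which they are high had to differ. The counts here, and the p-values of single inserts below, are therefore descriptions. In MM3MG-Her2 against MM3MG 9 were higher, where 39.7% of all inserts were, and 2 were lower, where 28.8% were and 68.5% passed; without MM3MG replicate 1, 14 were higher. Set against MM3MG, TUBO cells had 3 higher inserts, where 24.6% of all were, and 0 lower in edgeR (0 also at an unadjusted p under 0.05, and 0 in DESeq2), where 24.8% were and 49.4% passed. Set against MM3MG-Her2, TUBO cells had 2 higher, where 26.4% of all were, and 8 lower, where 46.1% were and 72.6% passed.

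MM3MG-Her2 held 2 kinds of piece that MM3MG nearly lacked. The U1 insert of bases 47 to 65 had 56.1, 73.6 and 87.9 RPM in MM3MG-Her2, against 0 reads in MM3MG. In TUBO cells this insert had 9.18, 19.0 and 15.5 RPM. U1 pieces ending at base 65 made 20.8, 30.3 and 38.6% of U1 reads in MM3MG-Her2, against 0, 0.424 and 0% in MM3MG. Supernatant replicate 3 also stood apart for this piece, with 5.67% of U1 reads, against 0.412 and 0.999% in the other 2 supernatant libraries. The U2 insert of bases 94 to 121 with Rnu2-10 letters had 110.1, 42.0 and 90.9 RPM in MM3MG-Her2, against 0, 0 and 2.20 in MM3MG, a log2 change of 6.48 ± 0.72. U2 pieces ending at base 121 made 18.7, 10.9 and 19.0% of U2 reads in MM3MG-Her2, against 1.502, 1.76 and 1.55% in MM3MG.

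The U1 pieces at the last bases were a smaller part in MM3MG-Her2. Pieces from base 144 to 148 up to base 165 made 33.2, 42.5 and 30.1% of U1 reads in MM3MG-Her2, against 57.7, 66.1 and 80.0% in MM3MG. The U1 insert of bases 148 to 165 fell by 1.92 ± 0.42 log2 (edgeR adjusted p = 0.000145). Reads holding the Sm motif made 70.3, 57.6 and 62.0% of snRNA reads in MM3MG-Her2, against 54.4, 23.6 and 28.7% in MM3MG. The groups did not overlap (exact 2-sided permutation p = 0.1, 0.12 adjusted over 6 comparisons), and MM3MG replicate 1 was again apart from the other 2. TUBO cells and MM3MG overlapped in this measure (exact 2-sided permutation p = 0.7). The share of motif reads also depends on how large a part of snRNA reads is U2. U2 made 66.06 ± 5.44% of them in MM3MG-Her2, against 40.47 ± 15.8% in MM3MG (SD, n = 3 each). Within U2, motif coverage averaged 89.4% in MM3MG-Her2 and 75.99% in MM3MG, with overlap (exact 2-sided permutation p = 0.3). Within U1 it averaged 5.19% and 1.94% in these groups, without overlap (exact 2-sided permutation p = 0.1). Among reads that did not match snRNAs, the motif was held by 0.681 to 0.801% in MM3MG-Her2 and 0.925 to 1.11% in MM3MG.

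The 24-base U2 insert was found with 2 sets of letters, and the groups differed in which prevailed. Mouse U2 is encoded by many gene copies, and the substitution G109C, with the Rnu2-10 base first and the position counted from the 5′ end of the transcript, separates 8 annotated full-length copies with G, on chromosomes 8, 11 and X, from 5 with C, on chromosomes 1 and 11, among them Gm23472. The letter C stood in 28.4, 30.1 and 31.2% of U2 reads covering the base in exosomes and in 34.3, 34.2 and 39.3% in supernatant, against 66.3, 57.8 and 56.4% in TUBO cells. Neither extracellular group overlapped the cells (exact 2-sided permutation p = 0.1 each, 0.15 adjusted over 6 comparisons). The share of C was 69.1, 74.7 and 71.5% in MM3MG-Her2, against 61.0, 72.8 and 69.8% in MM3MG, and these overlapped (exact 2-sided permutation p = 0.5).

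The difference was also present when 1 piece alone was counted. Of reads of the insert of bases 93 to 116, the share with Gm23472 letters was 38.3, 44.5 and 40.0% in exosomes and 40.9, 38.8 and 49.4% in supernatant, against 80.0, 70.2 and 73.1% in TUBO cells. Those shares rest on 661, 722 and 493 reads in exosomes, 247, 299 and 249 in supernatant, and 130, 84 and 104 in TUBO cells. In MM3MG-Her2 the share was 82.1, 88.4 and 87.1%, against 69.0, 91.8 and 76.8% in MM3MG.

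**Figure D5:**
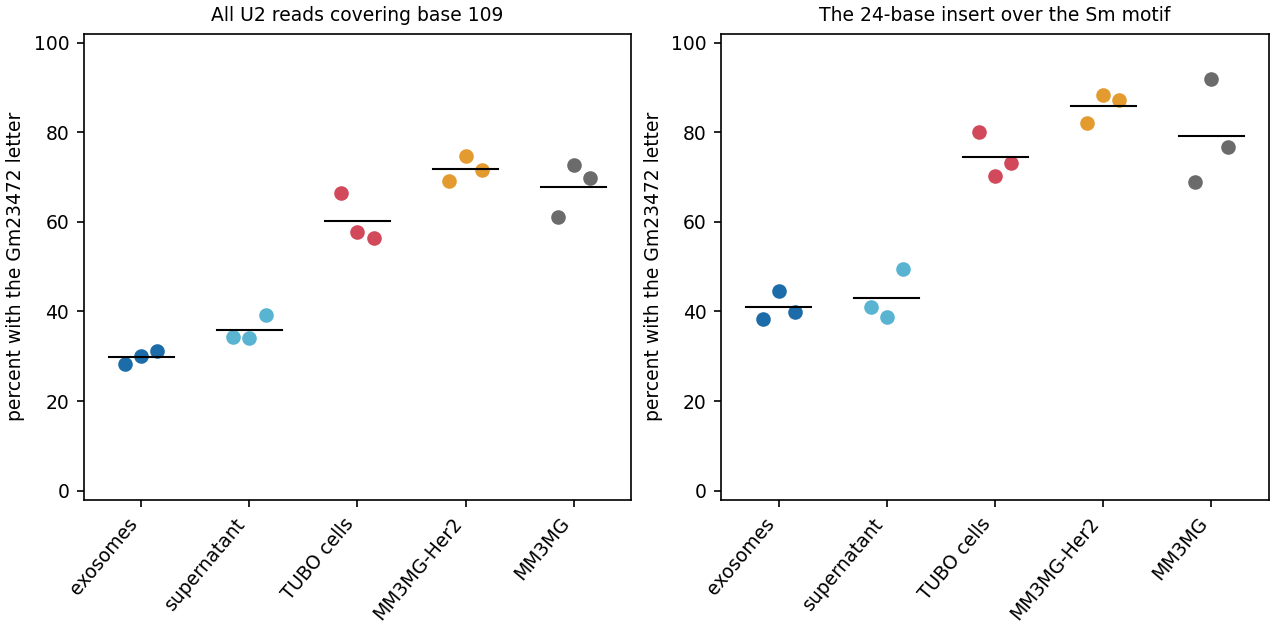
Percent of U2 reads with the Gm23472 letter at base 109, over all U2 reads that cover the base (left) and within the insert of bases 93 to 116 (right), per library (points) with the mean of 3 (bar). Exosomes and supernatant lie between 28.4 and 49.4%, below the 3 cell groups at 56.4 to 91.8%.

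Other short non-coding RNAs did not all follow the snRNAs. Y RNAs, the partners of the Ro protein, averaged 4523 ± 1094 RPM in exosomes and 962 ± 434 in supernatant, against 416 ± 6.64 in TUBO cells (SD, n = 3 each). Vault RNA averaged 752 ± 131 in exosomes and 501 ± 46.4 in supernatant, against 87.0 ± 14.3 in TUBO cells. 7SK, a nuclear RNA that holds back transcription elongation, averaged 62.5 ± 53.7 in exosomes and 49.4 ± 10.97 in supernatant, against 26.8 ± 13.1 in TUBO cells, and its exosome values of 22.1 to 123 overlapped those of TUBO cells, at 13.8 to 39.97. 7SL, the RNA of the signal recognition particle, averaged 479.9 ± 212 in exosomes and 185 ± 52.4 in supernatant, against 214 ± 39.01 in TUBO cells. RNase MRP RNA averaged 22.6 ± 7.48 in exosomes and 66.2 ± 16.2 in supernatant, against 68.6 ± 19.6 in TUBO cells. RNase P RNA averaged 8.40 ± 7.29 in exosomes and 54.7 ± 15.7 in supernatant, against 6.66 ± 3.46 in TUBO cells. Pieces of snoRNAs and scaRNAs, the guides of RNA modification, were a smaller share outside cells, at 0.199 to 0.265% of reads in exosomes and 0.259 to 0.689% in supernatant, against 1.31 to 1.49% in TUBO cells. No difference between these RNAs and the snRNAs was tested.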

How the data were processed

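The authors deposited 1 table per library of whole-read counts per distinct insert, not normalized, per the values in the files. The inserts carried no adapter, and the trimming tool is not named in the labels. Per the labels' protocols, adapters were ligated to total RNA, the cDNA was amplified by PCR, and the gel band of miRNA inserts was taken. Inserts were 18 to 75 bases long. They were matched here to GENCODE M21 transcripts with Python 3.11.15 and Biopython 1.88. 16 inserts with 58 reads that also matched miRNA hairpins were left out, and the 195 that also matched another transcript were kept. Transcripts were grouped into classes by sequence similarity to named genes. No gene of the annotation used here is named U4, U4atac or U6atac. The name U4 was given to the largest unnamed family (46 transcripts, led by Gm24265), whose bases 5 to 12 are complementary to bases 63 to 70 of Rnu6. It rests on family size and this run of 8 bases. The U5 family and the family of Gm22534, which had no reads, also had runs of 8, so the run alone does not single the family out. A class sum was placed on 1 reference gene, by exact match for 1114 inserts (74.2% of reads) and by alignment for 539.

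Counts per annotated feature and per insert were tested with edgeR 4.0.16 (R 4.3.3): quasi-likelihood F-test, filterByExpr, all reads as library size, Benjamini-Hochberg over all features, threshold 0.05. One fit held the 9 TUBO libraries and another the 9 cell libraries. Shares and lengths had exact 2-sided permutation tests over libraries with at least 20 reads of the class. The settings were tested on simulated data. Named inserts were the 3 highest of each class with 100 reads or more, and for each comparison the 3 largest rises and falls past the threshold, with at least 50 reads and no overlap between groups. The alternatives were TMM, RLE and miRNA-based scaling, no filter, DESeq2 1.42.0, a replicate block, other matching and length rules, and leaving out each library. Members, lists and tests were chosen with earlier results of these data known. Some U1 and U6 inserts are given by position only.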

Additional observations from a re-analysis of the deposited data

Results flagged for a closer look

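U11 moved in opposite directions in the 2 extracellular groups: every exosome library was below, and every supernatant library above, every TUBO cell library. The difference between them was tested directly, as exosomes against supernatant, with a log2 change of -2.82 ± 0.39 (edgeR adjusted p = 4.26e-06, n = 3 each, lower in 3 of 3 exosome libraries). Leaving out 1 library at a time kept it between -2.98 and -2.61. The values rest on 16, 11 and 8 reads in exosomes, against 42, 33 and 39 reads in supernatant.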

How the results depend on the processing

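The rises of the snRNA total, U1, U2 and U12 in exosomes and in supernatant against TUBO cells, and both U11 changes against TUBO cells, kept direction and threshold under every alternative run for them. Other values that changed, beside the reported one, follow.

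Scaling. In exosomes against supernatant, U2 (0.21, not passing) was -0.66 with TMM, -0.51 with RLE, -0.75 with miRNA reads as library size and -0.51 in DESeq2, passing in all 4; U5 (0.57) was -0.30, -0.14, -0.38 and -0.14. Classes called (3) were 5 with TMM and 5 with miRNA reads. Inserts higher (6) were 1 with TMM, 1 with RLE, 0 with miRNA reads, 1 without filter and 2 in DESeq2; inserts lower (42) were 79 with miRNA reads. In MM3MG-Her2 against MM3MG, U11 (-0.29) was 0.031 with TMM, 0.27 with RLE, 0.27 with miRNA reads and 0.28 in DESeq2. There, classes called (2) were 4 with miRNA reads, and inserts lower (2) were 1 with RLE, miRNA reads or DESeq2. In TUBO cells against MM3MG, the total (0.33) was 0.53 with TMM and 0.68 with RLE or DESeq2, and passed. U5 there (-0.07) was 0.12 with TMM, 0.28 with RLE or DESeq2, 0.20 with 1 substitution allowed and 0.10 with inserts of 18 to 26 bases. Inserts higher (3) were 5 with RLE or miRNA reads. In TUBO cells against MM3MG-Her2, U1 (0.05) was -0.088 with TMM, -0.16 with RLE or DESeq2 and -0.51 with miRNA reads. The U1 value with miRNA reads passed (edgeR adjusted p = 0.00394), as did U5, at -0.76 (-0.21; edgeR adjusted p = 0.00246). Classes called (1) were 4 with miRNA reads and 2 with 1 substitution allowed, and inserts higher (2) were 1 with miRNA reads.

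Filter. Without the low-count filter, inserts higher in supernatant against TUBO cells were 136 (87) and lower 1 (0). The total in exosomes against supernatant stayed at -0.56 but its edgeR adjusted p was 0.522. Inserts higher in MM3MG-Her2 against MM3MG were 15 (9). In TUBO cells against MM3MG, inserts higher were 5 (3), lower 1 (0), and classes called 0 (1), against 2 in DESeq2 and 2 with uncalled bases taken as matching, where U6 passed at -0.90 (edgeR adjusted p = 0.0461). U7 passed in exosomes against TUBO cells with miRNA reads, at 1.28 (edgeR adjusted p = 0.0382).

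Reverse-strand matches, a measure of chance matches, were 0.000497% of reads in exosomes, 0.000292% in supernatant, 4.69e-05% in TUBO cells, 0% in MM3MG-Her2 and 0.000155% in MM3MG. Counting each distinct insert once in place of its reads turned U1 mean length to 0.20 bases in MM3MG-Her2 against MM3MG (-0.69) and to 0.38 in TUBO cells against MM3MG (-0.31). It turned U2 mean length in exosomes against supernatant to 0.69 (-0.08). U2 motif coverage became -0.70 points in exosomes against supernatant (0.96) and 5.56 in TUBO cells against MM3MG (-6.77). The U2 share in the middle of the transcript became -4.03 (0.05) and 1.94 (-7.52) in these comparisons.

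Leaving out 1 library gave these ranges. In exosomes against TUBO cells, inserts lower were 1 to 4. In supernatant against TUBO cells, classes called (5) were 6 to 7, because U6 was then tested and passed and U4 passed without supernatant replicate 1. In exosomes against supernatant, the total was -0.73 to -0.39, inserts higher 1 to 8, the U2 middle share -0.091 to 0.20 and U2 length -0.14 to 0.018. In MM3MG-Her2 against MM3MG, U5 was -0.044 to 0.32, classes called 1 to 3 and inserts higher 9 to 14. Between TUBO cells and MM3MG, the total was 0.21 to 0.57, U5 -0.15 to 0.030, classes called 1 to 3, inserts lower 0 to 1 and U2 motif coverage -12.4 to 0.43. Between TUBO cells and MM3MG-Her2, U11 was -0.27 to 0.17, classes called 0 to 1 and inserts higher 1 to 2. Leaving out MM3MG replicate 1 gave the highest total, class count and motif coverage in TUBO cells against MM3MG and the 14 higher inserts in MM3MG-Her2 against MM3MG.

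Replicate block. Same-numbered libraries did not vary together (correlations of -0.13 to 0.17 over 562 features; 6 of 18 were highest with their own number), so the numbers were not taken as pairs. With the block, the total in TUBO cells against MM3MG was 0.35 (edgeR adjusted p = 0.0479), and no other call of a class or of the total was different. The cause of these changes was not tested. Depth limits U4, U6 and U12, with 0 to 36 reads per library, and U5 in supernatant, with 4 to 8.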
